A study of Arabidopsis thaliana with 12 samples.

Results

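Of the array probes whose annotation lists several gene names, 84 had a higher intensity on every array of cold-treated plants than on any array of control plants. They were chosen by that separation alone: several names in the platform annotation, a deposited value above 0 on all 12 arrays, and a lowest value on the 6 arrays at 4 °C above the highest value on the 6 arrays at 20 °C. The table held 3439 probes, 870 of them with several names, and 786 of those were above 0 on all arrays. Because the values at both temperatures chose the probes, their differences are a description and carry no test. A signal on such a probe can come from any of the listed genes or from several together, so each result belongs to the probe and the names are alternatives.

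The arrays measured total RNA of wild-type Arabidopsis thaliana, the thale cress, ecotype Columbia 0. Control plants were grown in medium light at 20 °C. Treated plants were moved to 4 °C for 24 h in the same light, which the submitters call photoinhibitory, meaning that photosystem II loses activity to light damage faster than the plant restores it. Both groups are wild type, and the labels give neither the age, the organ nor the number of plants behind an array.

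A plant that meets low but not freezing temperatures starts a programme known as cold acclimation. CBF transcription factors switch on a set of cold-regulated (COR) genes, and many of their products protect membranes and proteins against freezing and loss of water. In the chloroplast, cold slows the enzymes that use light energy more than it slows light capture, so the machinery of photoprotection, protein repair and carbon fixation is also known to adjust. Many of the genes involved belong to families with close copies, and a short or older array probe often cannot tell such copies apart.

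Arrays 1 and 2, 3 and 4, and 5 and 6 of a group were much alike. The median absolute log2 difference between the arrays of such a pair was 0.0775 to 0.0925 at 20 °C, where other pairings gave 0.176 to 0.284. At 4 °C it was 0.139 to 0.165, and other pairings gave 0.281 to 0.344. Each pair was therefore counted as 1 sample, and means and SDs below are over 3 pair means per temperature (n = 3). The deposited intensity is on a linear, already scaled axis with array means between 1.02 and 1.09, so a level is relative to its own array and not an amount of RNA. A change is the log2 difference, 4 °C minus 20 °C, with its SE from limma on the pair means, and a fold is 2 to the power of that change.

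The 84 probes were 10.7% of the several-name probes above 0 on all arrays. The same criterion was met by 9.30% of all 3108 probes above 0 on all arrays (289 probes), by 7.82% of the probes with 1 name (48 of 614) and by 9.19% of those with no name (157 of 1708). The opposite pattern, every value at 4 °C below every value at 20 °C, was seen on 394 several-name probes, or 50.1%. In the limma fit on pair means, 6.87% of the 3379 probes above 0 on any array were called higher at 4 °C and 49.6% were called lower at an adjusted p of 0.05. The median log2 change was -0.74 over those 3379 probes and -0.70 over the 786 several-name probes.

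Among the 84, the median log2 change was 0.76, a 1.69-fold difference. The middle 50% lay between 0.57 and 1.16, and the whole range ran from 0.29, a lower bound on probe 1803, to 3.34. A difference of at least 4-fold was found on 3 probes, of 2- to 4-fold on 26, of 1.5- to 2-fold on 32 and of less than 1.5-fold on 23. The distance between the groups can also be read from the ratio of the lowest value at 4 °C to the highest at 20 °C. This ratio was at least 2 on 7 probes and at least 1.5 on 20, and it was below 1.1 on 21.

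The probes with the greatest difference list the cold-regulated genes COR15A and COR15B. Both encode small chloroplast proteins of the late embryogenesis abundant type that stabilise membranes during freezing, and both are known targets of the CBF factors. The genes are neighbours in the reference annotation, and COR15A or COR15B may give the signal of either probe. On probe 615 the intensity was 1.01 at the lowest, 1.18 at the median and 1.36 at the highest on the arrays at 20 °C. At 4 °C the corresponding values were 10.95, 11.8 and 13.3. The groups lay far apart, with a lowest cold value 8.08 times the highest control value. The mean went from 1.18 ± 0.137 to 11.9 ± 0.667 (SD, n = 3), a 10.1-fold difference with a log2 change of 3.34 ± 0.14 (SE).

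Probe 3484, with the same pair of names, read 1.15, 1.36 and 1.53 at the lowest, median and highest at 20 °C. Its values at 4 °C were 10.5, 11.1 and 12.5. The mean was 1.33 ± 0.147 at 20 °C and 11.4 ± 0.954 at 4 °C, an 8.56-fold difference with a log2 change of 3.10 ± 0.15. The changes of the 2 probes differed by 0.24 on the log2 scale. Within the control group they did not move together, since arrays 5 and 6 were the highest pair on 615 and the lowest on 3484. They were the only several-name probes above 0 on all arrays that hit the list of cold and dehydration regulated genes. Thus 2 of 2 were higher, where 10.7% of all several-name probes were. As both list the same genes, they stand for 1 gene pair. The other markers looked for, the cold-regulated COR47, KIN1 and KIN2, the light stress proteins ELIP1 and ELIP2, and PSBS, CHS and FSD1, stood on no several-name probe.

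Probe 2267, which lists AT3G52950 and AT2G36500, was next. It read 0.0336 at the lowest, 0.0986 at the median and 0.127 at the highest at 20 °C. At 4 °C it read 0.489, 0.527 and 0.608. The groups were well separated, although the level at 20 °C was the dimmest of the 84 and array 3 there was far below its partner (0.0336 against 0.0804). The mean went from 0.0926 ± 0.0311 to 0.541 ± 0.0486, a log2 change of 2.66 ± 0.33 and a fold of 6.30, which became 4.91 without arrays 3 and 4 at 20 °C.

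Probe 3593, listing AT4G21010 and AT4G20330, read 0.123, 0.311 and 0.394 at 20 °C and 0.646, 0.800 and 1.22 at 4 °C, again as lowest, median and highest. Arrays 1 and 2 were the lowest of the control arrays and the highest of the cold arrays, so the 3.45-fold difference (log2 change 1.79 ± 0.47) was less even over the pairs than for COR15A and COR15B. Probe 4058, listing AT4G21460 and AT3G18240, read 0.773, 0.822 and 1.03 at 20 °C and 2.18, 2.69 and 3.47 at 4 °C. Its fold was 3.15 (log2 change 1.66 ± 0.20), and its cold values were highest on arrays 1 and 2 and lowest on arrays 5 and 6.

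Probe 411, listing AT5G19500 and AT2G33260, read 0.812, 0.925 and 0.956 at 20 °C and 2.16, 2.39 and 4.09 at 4 °C, a 3.06-fold difference. Its cold arrays 1 and 2, at 3.83 and 4.09, lay well above the other 4. Probe 4294, listing AT1G73160, AT5G59070 and AT4G19460, read 0.158, 0.218 and 0.310 against 0.468, 0.631 and 0.948, a 3.05-fold difference. Probe 2150, listing AT1G78140 and AT2G41040, read 1.13, 1.68 and 1.86 against 3.01, 4.76 and 5.90, a 2.91-fold difference. On both of these probes the cold arrays 1 and 2 were again the highest pair and the control arrays 1 and 2 the lowest.

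The tightest of the 10 leading probes was 2963, listing AT1G73750 and AT1G15060. It read 0.952, 0.985 and 1.07 at 20 °C and 2.60, 2.85 and 2.96 at 4 °C. Its means were 0.992 ± 0.0332 and 2.81 ± 0.0486, so a 2.83-fold difference stood beside spreads of a few percent. Probe 1138 lists AT4G12500 and AT4G12490, close neighbours in the annotation, and read 0.580, 0.642 and 0.716 against 1.57, 1.74 and 2.18. Its fold was 2.81, with a log2 change of 1.49 ± 0.16.

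Other probes with known gene symbols touched the chloroplast. Probe 1796 lists FIB, a fibrillin of plastoglobules, the lipid bodies attached to thylakoid membranes, with AT5G09820, AT4G22240 and AT2G35490. It read 0.355, 0.735 and 0.835 at 20 °C and 1.21, 1.59 and 1.84 at 4 °C. Its mean went from 0.649 ± 0.230 to 1.56 ± 0.258, a 2.51-fold difference with a log2 change of 1.33 ± 0.33. The control arrays 1 and 2 stood at 0.423 and 0.355, below the other 4.

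Probe 425 lists FUG1, a translation initiation factor of the chloroplast, with AT4G11160. It read 0.104, 0.266 and 0.289 at 20 °C and 0.322, 0.482 and 0.569 at 4 °C. The lowest cold value was 1.11 times the highest control value, and the fold was 2.15 with an SE of 0.39 on the log2 scale. Probe 665 lists RCA, the Rubisco activase that keeps the carbon-fixing enzyme active, with AT1G73110. It read 1.43, 1.51 and 1.76 against 1.93, 2.15 and 2.29, a 1.36-fold difference.

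In protein turnover, probes 1033 and 1294 both list UBC20 and UBC19, E2 enzymes that carry ubiquitin to its targets. Probe 1033 read 3.67, 4.04 and 4.63 at 20 °C and 5.15, 6.96 and 8.51 at 4 °C. Probe 1294 read 0.471, 0.505 and 0.582 at 20 °C and 0.667, 0.805 and 1.09 at 4 °C. As deposited their folds were 1.68 and 1.60. Their log2 changes drew apart after quantile normalization, at 0.31 for 1033 and 1.38 for 1294, and after cyclic loess, at 0.34 and 1.33, and probe 1033 then no longer met the criterion. Probe 3799, listing AT1G62290 and the aspartic proteinase APA1, read 0.629, 0.687 and 0.738 against 0.994, 1.06 and 1.16, a 1.55-fold difference. Of 6 several-name probes with a name on the ubiquitin and proteolysis list, these 3 were higher, 1 was lower on every cold array and 2 overlapped, and 2 of the 3 list the same genes. Over all several-name probes 10.7% were higher and 50.1% lower in this sense. The list was matched on gene symbols and is incomplete, as it did not find probe 1515, which lists the F-box protein UFO.

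In metabolism, probe 304 lists GLX2-4 and GLX2-5, of the glyoxalase II family of detoxifying enzymes. Its mean was 0.879 ± 0.128 at 20 °C and 1.70 ± 0.400 at 4 °C, a 1.91-fold difference. Probe 2145 lists 5 genes, the most of any of the 84, among them OPCL1, a CoA ligase of jasmonate synthesis. It went from 3.67, 3.88 and 4.64 to 6.16, 6.72 and 6.98, a 1.66-fold difference. After quantile normalization its log2 change was 0.30 and it no longer met the criterion. Probe 4208, which lists OPCL1 with 3 other genes, had a log2 change of -2.62 ± 0.20. Probe 4327, listing the acyl-activating enzymes AAE15 and AAE16, read 0.358, 0.489 and 0.569 against 0.643, 0.675 and 0.921, a 1.56-fold difference. Probe 4552, with the same names, read 0.0653 to 0.110 at 20 °C and was listed at 0 on 4 cold arrays, with 0.0206 and 0.0241 on the others. On the lipid list 1 of 5 probes above 0 on all arrays was higher and 3 were lower on every cold array, beside 10.7% and 50.1% of all several-name probes.

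Probe 4030 lists CSLC5, CSLC6 and ATCSLC08, cellulose-synthase-like proteins of the family that makes the xyloglucan backbone of the cell wall. It read 1.04, 1.08 and 1.14 at 20 °C and 1.39, 1.62 and 1.99 at 4 °C, a 1.55-fold difference with a log2 change of 0.63 ± 0.16. Probe 1130, which shares CSLC5 and ATCSLC08 with it but also lists CSLC12 and CSLC04, had a log2 change of -2.06 ± 0.24. Of the 7 probes on the cell wall list, 1 was higher, 4 were lower on every cold array and 2 overlapped, which is near the 10.7% and 50.1% of all several-name probes.

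The remaining probes with symbols differed by less. Probe 4444 lists PHOS32 and PHOS34, proteins known for being phosphorylated, and went from 5.06 ± 0.288 to 8.05 ± 1.29, a 1.58-fold difference. Probe 902, which lists them with AT1G11360, was lower on every cold array, with a log2 change of -2.003 ± 0.14. Probe 3324 lists UNG, a uracil DNA glycosylase of DNA repair, with AT2G10550, and went from 0.426 ± 0.0417 to 0.645 ± 0.120, a 1.501-fold difference. Probe 928, which lists both with AT2G10560, had a log2 change of -1.04 ± 0.58 as deposited, 0.46 after quantile normalization and 0.39 after cyclic loess. Probe 1515 lists UFO, an F-box protein of flower development, with AT5G15710, and went from 2.67 ± 0.145 to 3.35 ± 0.385, a 1.25-fold difference. Probes 4444 and 1515 no longer met the criterion after quantile normalization or after cyclic loess. Their log2 changes under these scalings were 0.19 and 0.22 for 4444, and 0.12 and 0.07 for 1515. For a probe like 1515 the names show the limit of the reading, since the signal may come wholly from the gene without a symbol.

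None of the 84 lay on the list of light stress proteins and antioxidants. The 3 probes above 0 that did, 2359 and 4595 with TAPX and SAPX and 3511 with GR and GR1, were lower on every cold array, with log2 changes of -1.18, -0.59 and -2.52, where 50.1% of all several-name probes were. Probe 4595 turned above 0 under the other scalings, to 0.33 after median centring, 0.39 after quantile normalization and 0.42 after cyclic loess. The single antenna probe, 3446 with LHCB4.1, LHCB4.2 and LHCB4.3, had a log2 change of 0.52 ± 0.20 and overlapped between the groups. The transcription factor list held 5 probes, of which 0 were higher, 3 were lower on every cold array and 2 overlapped. Of 5 probes on the list of cytoskeleton and histone genes, 0 were higher, 2 were lower on every cold array and 3 overlapped. The single probes on the lists of electron transport and ATP synthase, of RNA-binding and RNA processing and of kinases and phosphatases were not higher either. Over all several-name probes 10.7% were higher and 50.1% lower in this sense, so 0 higher in lists this short is near that share. These lists were matched on gene symbols, so FUG1 was not found by the list of translation factors, and families without symbols were missed.

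Of organ markers, only the leaf marker RCA was on a several-name probe, on 665 and on 1872, so the organ cannot be checked from these probes. A lower share of a cell type and less RNA per cell cannot be told apart in RNA of whole samples.

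The 6 probes of the 84 with the highest mean intensity at 4 °C were 1803, 4399, 3553 and 4360 and, after them, the COR15A/COR15B probes 615 and 3484. Probe 1803, listing AT5G51520 and AT4G25250, read 72.9, 75.8 and 79.3 at 20 °C and 86.2, 91.4 and 100 at 4 °C. Cold arrays 5 and 6 both stood at 100, the highest value in the deposited table, so a higher level could not be read there. Its fold is therefore at least 1.22, and the log2 change computed from the values at that ceiling was 0.29 as deposited, -0.14 after quantile normalization and -0.47 after cyclic loess.

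Probe 4399, listing AT1G59850, AT1G27210, AT5G62580 and AT2G07170, read 9.16, 10.9 and 13.0 at 20 °C and 21.2, 27.4 and 30.4 at 4 °C. Its 2.36-fold difference was seen in all 3 pairs of cold arrays, the lowest being arrays 3 and 4. Probe 3553, listing AT1G06890 and AT2G30460, read 5.77, 6.89 and 7.996 against 12.7, 14.5 and 15.8, a 2.11-fold difference. Probe 4360, listing AT4G22850 and AT4G12000, read 7.89, 8.77 and 9.25 against 9.46, 12.4 and 17.0. The groups of that probe nearly touch, and its 1.46-fold difference, a log2 change of 0.55 as deposited, was 0.02 after quantile normalization.

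The 84 had high intensities as a set, and an intensity depends on the probe as well as on the RNA. The median of their mean intensity was 1.11 at 20 °C and 2.08 at 4 °C, against 0.556 and 0.278 for the 702 other several-name probes. When the 786 probes were ordered by their mean over all 12 arrays and cut into 10 bins of 78 or 79, 41 of the 84 fell in the brightest bin, where they were 51.9% of the probes, and 0 in the dimmest. The log2 change itself moved with brightness, from a median of -0.99 in the dimmest bin to 0.40 in the brightest. The ordering uses the cold arrays too, so part of this is built into it, and the share of brightness in the result was not tested.

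How far the set depends on scaling was measured by repeating the criterion under other scalings of the arrays to each other. All 84 met it after median centring, 64 after quantile normalization and 64 after cyclic loess, and 63 met it in all 4 forms of the data. Median centring raised every log2 change by the same amount, on probe 615 from 3.34 to 4.25. It thus favours the criterion, and that all 84 met it there is a weak check. The median log2 change of all 3379 probes, -0.74 as deposited, was 0.17, 0.05 and -0.0016 under these scalings, so a change as deposited and a change after scaling are measured from different zero points. The scalings also let in more probes, 263, 196 and 192 several-name probes in all. Besides 1803, the log2 changes of probes 2426 and 750 turned below 0, to -0.14 and -0.15 after quantile normalization and to -0.09 and -0.10 after cyclic loess. For COR15A and COR15B the changes stayed large, 3.28 and 3.02 on probe 615 and 3.01 and 2.77 on probe 3484.

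At the border of the criterion the values were close on both sides. Just inside were probe 3196 (AT1G24240, AT5G11750 and AT4G11630), with a lowest cold value of 0.666 against a highest control value of 0.665, and probe 845 (AT1G52550 and AT3G15780), with 1.63 against 1.62. Probe 2426 (AT1G01910, AT5G60730 and AT3G10350) was the next, with 8.42 against 8.31. Just outside were probe 4384 (AT4G25370 and AT4G12060), with 1.105 against 1.109, and probe 3465 (AT5G08720 and AT4G01650), with 4.21 against 4.24. Probe 998, listing AT3G53910 and MDH, a malate dehydrogenase, was also outside with 0.517 against 0.523, although its log2 change of 0.90 was above the median of the 84.

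No single array set the border. The highest control value came from each of the 6 control arrays on between 8 and 21 of the 84 probes, and the lowest cold value from each of the 6 cold arrays on between 7 and 20. Cold arrays 1 and 2 were the highest pair on 36 probes, arrays 3 and 4 on 28 and arrays 5 and 6 on 20. The shares, 42.9%, 33.3% and 23.8%, were near those of the 702 other several-name probes, at 43.2%, 37.9% and 18.9%.

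Several measures that played no part in the choice of the probes were compared. Most of the 84 list 2 genes (64 probes), 16 list 3, 3 list 4 and 1 lists 5, much as among all 786, where 74.0% list 2 genes against 76.2% here. All names lay on 1 chromosome for 18 probes (21.4%, against 28.4% of the 786), and directly adjacent genes were listed on 8 (9.52%, against 11.2%). Genes at most 10 places apart were listed on 14 (16.7%, against 16.0%). Across probes, 3593 lists AT4G21010 and probe 3719, with a 1.97-fold difference, lists its neighbour AT4G21020. The names covered 187 genes in all, and 20 of them had a symbol of their own in the reference.

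A further view comes from other probes that carry the same names. Of the 84, 42 shared at least 1 name with another probe on the array and 42 did not. Within the 84, names were shared by 3 pairs of probes. Beside the COR15A/COR15B pair and the UBC20/UBC19 pair, these were probes 1862 and 2026, which share AT4G35510 and AT2G17540. Probe 1862 read 0.964, 1.45 and 1.81 against 2.49, 3.26 and 3.96, and probe 2026, which also lists AT5G66000, read 3.37, 3.88 and 4.18 against 6.57, 7.15 and 8.99. Their log2 changes of 1.21 and 0.98 differed by 0.23.

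Outside the 84, 31 several-name probes above 0 on all arrays shared a name with one of them. Of these, 25 had a log2 change below 0 and 6 above 0, with a median of -0.86. Lower on every cold array were 14 of the 31, and 17 overlapped. The 31 lie outside the 84, so the fair comparison is with all 702 several-name probes outside the 84. Of those 702, 394 were lower on every cold array, which is 50.1% of all 786 several-name probes. The median over the 702 was -0.87, and 83.3% were below 0, against 80.6% of these 31. After median centring 38.7% of the 31 and 48.6% of the 702 were below 0, with quantile normalization 35.5% and 53.6%, and with cyclic loess 38.7% and 55.1%. The 31 leave out 4 probes that were listed at 0 on some arrays.

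For 12 of the 84 there was another probe, outside the 84 and above 0 on all arrays, that lists exactly the same genes. Of those 12 other probes, 9 (75%) had a log2 change below 0 and 3 above as deposited. After median centring 2 were below 0 (16.7%), after quantile normalization 3 (25%) and after cyclic loess 3 (25%). Among the 702 several-name probes outside the 84, 83.3% were below 0 as deposited. Under the scalings, in the same order, 48.6%, 53.6% and 55.1% of the 702 were. Besides these 12, 3 probes with identical names were listed at 0 on some arrays. They were 4552, probe 1432 with AT4G20840 and AT4G20830 like probe 3179, and probe 1275 with AT5G07760 and AT5G07650 like probe 430. Probe 1432 read 0.733 to 1.69 at 20 °C and was listed at 0 on 5 cold arrays, and probe 1275 was listed at 0 on 10 of the 12 arrays.

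Probe 1361, with the names of 2267, read 1.49, 1.91 and 2.28 at 20 °C and 0.869, 1.06 and 1.195 at 4 °C, a log2 change of -0.87 ± 0.15 beside 2.66 for 2267. Its change was 0.05 after median centring, -0.68 after quantile normalization and -0.75 after cyclic loess.

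Probe 491, with the names of 3593, read 0.251, 0.425 and 0.517 against 0.162, 0.183 and 0.204, a log2 change of -1.08 ± 0.27 beside 1.79. The change of 491 was -0.16 after median centring, -0.03 after quantile normalization and -0.01 after cyclic loess. Probe 1872, with RCA and AT1G73110 like probe 665, read 0.168, 0.192 and 0.230 against 0.0431, 0.125 and 0.155, a log2 change of -0.91 ± 0.37 beside 0.44. The change of 1872 was 0.40 after quantile normalization and 0.28 after cyclic loess. Probe 4133, with AT4G30170 and AT2G18980 like probe 3548, had a log2 change of -1.07 beside 0.73, and its change was 0.10 after quantile normalization and 0.08 after cyclic loess. Of the 12, probe 2713, with the names of 845, came closest to its partner, at 0.25 beside 0.30.

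Over all several-name probes above 0 on all arrays, 73 pairs list identical genes, and 47 of these pairs had changes of the same sign as deposited. However, 585 of these 786 probes had a change below 0 as deposited, so unrelated probes would often share a sign too. The count of 47 was not compared with unrelated pairs, so it does not show that probes with identical names agree. The median absolute difference between the log2 changes of a pair with identical genes was 1.02, beside 0.24 for the COR15A/COR15B probes and 0.07 for the UBC20/UBC19 probes. Which of the listed genes each probe reads was not tested.

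Probes with a single gene name were not used in the choice, and 6 of them carry a name listed on one of the 84. They were tested with limma on pair means, two-sided, with Benjamini-Hochberg adjustment over all 3439 probes. Against the background of 6.87% called higher and 49.6% called lower, 0 of the 6 were called higher and 3 were called lower. At an unadjusted p under 0.05 the counts were also 0 and 3. Over the 12 single arrays, which count each array as a sample, they were 1 and 4.

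The gene AT2G21960 is listed with AT1G56180 on probe 3399, where the mean went from 0.436 to 1.03, a 2.43-fold difference. Its own probe, 1779, read 0.453, 0.467 and 0.493 at 20 °C and 0.0742, 0.0870 and 0.145 at 4 °C. The groups did not overlap, and AT2G21960 fell by 2.32 ± 0.14 on the log2 scale (adjusted p = 0.00029, limma).

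Probe 1796, which lists FIB, has such a partner for 2 of its 4 names. The AT5G09820 probe, 3917, read 0.771, 0.815 and 1.01 at 20 °C and 0.162, 0.207 and 0.238 at 4 °C, and fell by 2.06 ± 0.16 (adjusted p = 0.00048, limma). The AT2G35490 probe, 2349, read 0.839, 0.985 and 1.29 against 0.434, 0.587 and 0.640, and fell by 0.87 ± 0.20 (adjusted p = 0.012, limma). This call is lost under the other scalings: the log2 change was 0.04 after median centring (adjusted p = 0.89), -0.29 after quantile normalization (adjusted p = 0.34) and -0.34 after cyclic loess (adjusted p = 0.22). As deposited, both single-name probes thus went the other way from probe 1796, while FIB and AT4G22240 had no single-name probe. Probe 2870, which lists those 2 genes with AT2G46910, had a log2 change of 0.35.

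The other 3 single-name probes passed no threshold in the fit on pair means as deposited. Over the 12 single arrays, the AT1G24240 probe was called lower (adjusted p = 0.011, limma) and the AT1G35510 probe higher (adjusted p = 0.0058, limma). AT1G24240, listed on probe 3196, had a log2 change of -1.75 ± 0.74 on probe 2594 (adjusted p = 0.089, limma). It was called lower, with a log2 change of -2.53 (adjusted p = 0.0091), when control arrays 1 and 2 were left out. AT3G50130, listed with AT3G50190 and AT3G50140 on probe 3885, had 0.20 ± 0.18 on probe 2484 (adjusted p = 0.39, limma). It was called higher after median centring, at 1.11 (adjusted p = 0.0086), and after quantile normalization, at 0.68 (adjusted p = 0.037). AT1G35510, listed with AT1G14970 and AT2G01480 on probe 3249, had 0.28 ± 0.13 on probe 473 (adjusted p = 0.13, limma). It was called higher after median centring, at 1.19 (adjusted p = 0.0018).

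Whether the 3 pairs at a temperature came from separate plants is not stated in the labels, so these p-values measure only the spread between the samples, which may be technical.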

How the data were processed

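Total RNA was measured on 12 arrays. The table the authors deposited holds linear intensities, 1 for each probe on each array. The scanner and the steps of background correction and scaling are not named there or in the labels. No coordinates are printed because no build is stated for the array. Gene names came from the platform annotation, dated 2016, with symbols from RefSeq assembly TAIR10.1. The reference holds no gene descriptions, so lists given by keyword were matched on symbols and synonyms.

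Array means lay within 3.35% of the overall mean, so the deposited intensities were used unscaled. Values of 0 were set to the array's lowest value above 0, and log2 values averaged by array pair were fitted with limma 3.58.1 (lmFit, eBayes; R 4.3.3) over all 3439 probes. The fit was tested on simulated data. Counts of calls leave out probes at 0 on all arrays. Replicate numbers of the labels did not pair the groups: same-numbered arrays deviated with correlations of -0.23 to 0.14, and 0 of 6 numbers correlated best with its own.

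The members and lists were chosen with earlier results of these data known. The named probes are the 10 with the largest change, the 6 brightest at 4 °C, up to 4 per list, those with a gene symbol, those at the border and those that share names. Alternatives were other scalings, filters, a wider gap, pair means, a replicate block, an offset and leaving out arrays. A comparison of promoter motifs and protein identity, planned for these probes, was not run because no sequences were at hand.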

Additional observations from a re-analysis of the deposited data

How the results depend on the processing

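The count of 84 became 263 after median centring, 196 after quantile normalization, 192 after cyclic loess and 20 with a lowest cold value at least 1.5 times the highest control value. It was 84 with values of 0 let in, 83 without the dimmest 25% of probes and 112 on pair means. With the replicate block, the cold value above the control value within each shared number, it was 119. Without single arrays it ran from 84 to 91. Without both arrays of a pair, an alternative chosen after seeing the data, it ran from 92 to 105. Leaving out arrays, averaging pairs, comparing within a shared number and letting in values of 0 can only relax the criterion. That all 84 stayed in those sets was fixed in advance and is no sign of stability. The set after median centring also held all 84, and those after quantile normalization and cyclic loess held 64 each. The median log2 change of 0.76 became 1.67, 1.19 and 1.04 under the same 3 scalings, 0.71 with an offset of 0.111 before log2 and 0.76 with the replicate block on pair means. Without single arrays it ran from 0.76 to 0.78 and without a pair from 0.74 to 0.80. Of 420 values of 20 named probes under alternatives, 371 moved by less than the spread between pairs and 47 by more. The other 2 turned below 0, both on probe 1803, to -0.14 after quantile normalization and -0.47 after cyclic loess. All 47 and these 2 came under the 3 scalings, where most values moved. The rest of the 420 left out an array or a pair, and all of those moved by less than the spread. No fold of the 84 moved by more than 1.16 times without an array or 1.46 times without a pair. The count of single-name probes called higher, 0, was 2 after median centring, 1 after quantile normalization, 1 over the 12 single arrays and 1 with the replicate block on 12 arrays. It was 0 in every fit without 1 array or pair. The count called lower, 3, ran from 2 to 4. Of the 6, the AT2G35490 probe turned, to 0.0403 after median centring. Why scaling moves these values was not tested. Signal limits the dimmest probes, and the deposited ceiling of 100 limits probe 1803. Among the 20 named probes, no array of the 40 groups tested lay apart from the other 5 by Dixon's criterion. Because arrays came in close pairs, this criterion cannot find a pair that lies apart, such as cold arrays 1 and 2 on probe 411. The counts of other probes with shared names that lie below 0 under each scaling, given in the report, were also chosen after seeing the data.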
